A study of Homo sapiens with 8 samples.

Results

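Collagens are the triple-helical proteins of the extracellular matrix, and each gene of the family encodes 1 chain of a trimer. The files list 44 genes whose symbol has the form COL, a type number, A and a chain number, out of 59050 gene symbols. They comprise 11 genes of fibril-forming collagens, the 6 genes of collagen IV and 27 genes of other types. They were measured by RNA sequencing in xenograft tumours of H2122, an established cell line from a human lung cancer. Parental tumours, whose genotype is given as WT, numbered 4, and tumours of the same line with a SMARCA4 knockout (SMARCA4 KO) numbered 4. SMARCA4 is the motor subunit of SWI/SNF complexes, which move nucleosomes, and all 8 tumours came from hosts given vehicle. The host strain and age, the time of growth, and whether the knockout cells were 1 clone or a pool are not given in the sources used here. Nothing in the labels states that tumours of a group came from separate animals, so p-values measure only the spread between these samples.

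Fibrillar collagens assemble into the cross-banded fibres of connective tissue and are made mainly by fibroblasts and related cells. Collagen IV forms the sheet-like network of basement membranes, the thin matrix on which epithelia and vessels rest, and epithelial cells secrete it themselves. The remaining types decorate fibrils, form beaded filaments or short networks, anchor the basement membrane to the tissue beneath, or span the cell membrane. In a xenograft the tumour cells are human and the stroma is of the host, and whether host reads were removed before counting is not given in the sources used here. Host reads that resemble human transcripts may therefore be part of any value below. In bulk RNA, fewer cells of a type and less RNA per cell cannot be told apart.

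Gene counts per library ran from 19785922 to 23191698. Values are given in CPM, counts scaled to a common library size after TMM, a correction for library composition. SMARCA4 lay at 198 to 235 CPM in parental and at 22.3 to 31.1 CPM in knockout tumours, so each library was on the side that its label gives. The epithelial markers (8 genes, all tested) were present in all 8 tumours. They summed to 6479 to 7568 CPM in parental and 5042 to 6676 CPM in knockout tumours, ranges that overlapped. KRT7, KRT19, CLDN4 and CLDN7 fell, by 0.71, 1.01, 0.99 and 0.31 on the log2 scale, and none rose past the threshold. EPCAM was not called, at 447 to 564 CPM in parental and 433 to 446 CPM in knockout tumours. CDH1, KRT8 and KRT18 were not called either, with log2 fold changes of 0.08, 0.16 and 0.11. The part of these changes in the collagen values was not tested. Of 12 fibroblast markers, 6 were tested and 3 rose: LUM from 0.374 to 12.4, MFAP5 from 0.568 to 16.4 and FBN1 from 8.45 to 25.1 mean CPM. All 12 markers summed to 10.8 to 22.8 CPM in parental and 56.8 to 64.2 CPM in knockout tumours, where LUM, MFAP5 and FBN1 made up most of the sum. The other 3 tested, FAP, POSTN and FBLN1, were not called, and the untested 6 stayed under 1 CPM, with DPT at 0 in every tumour. Of the untested, DCN had 9 counts in parental and 24 in knockout tumours, PDGFRB 27 and 15, and PDGFRA 6 and 1. The leukocyte markers (8 genes) summed to 52.4 and 40.7 CPM in parental replicates 2 and 3, and to 7.65 to 22.4 CPM in the other tumours. Skeletal muscle markers (8 genes) summed to 42.7 CPM in parental replicate 2 and to 2.44 to 16.8 CPM elsewhere. MB, the only 1 of them tested, was called lower in the knockout (log2 fold change -0.98, edgeR adjusted p = 0.0471). Pericyte and smooth muscle markers (6 genes) summed to 288 to 375 CPM in parental and 286 to 351 CPM in knockout tumours, mostly NOTCH3, and TAGLN alone was called, higher in the knockout. Adipocyte markers (5 genes) did not exceed 1.27 CPM in sum.

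The genes of collagen IV lie in head-to-head pairs, each pair on opposite strands with a shared stretch between the start sites. These stretches are shown, whole or in part, because both genes of the first pairs passed the test described below and neither gene of the last did. They come from RefSeq promoter windows on GRCh38.p14 and are written on the plus strand. Capitals mark every match on either strand to the CCAAT box, to the TATA box TATAAA, to the GC box GGGCGG, to the motif CCCTNCCCC or to the AP-1 motif TGANTCA, and no match overlapped another.
COL4A1/COL4A2, chr13:110307158-110307283: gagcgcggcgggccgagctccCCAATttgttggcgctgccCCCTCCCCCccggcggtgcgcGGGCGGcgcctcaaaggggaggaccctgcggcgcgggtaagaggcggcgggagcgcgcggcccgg
COL4A4/COL4A3, chr2:227164454-227164564: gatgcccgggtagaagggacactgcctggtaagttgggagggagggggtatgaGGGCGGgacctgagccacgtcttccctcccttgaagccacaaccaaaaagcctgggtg
COL4A6/COL4A5, chrX:108439588-108439837: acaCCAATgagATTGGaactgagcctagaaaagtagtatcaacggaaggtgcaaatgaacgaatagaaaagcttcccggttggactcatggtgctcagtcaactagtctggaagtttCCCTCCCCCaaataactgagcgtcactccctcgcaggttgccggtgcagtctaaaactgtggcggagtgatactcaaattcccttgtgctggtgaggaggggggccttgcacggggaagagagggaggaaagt

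The COL4A1/COL4A2 stretch is the 126 bases between the RefSeq starts. GENCODE 29 places the outermost start of COL4A1 inside it, at 110307233, and that of COL4A2 outside it, at 110305812, within the COL4A1 gene. The stretch was 80.2% G or C and held 1 CCAAT box, 1 GC box and 1 match to CCCTNCCCC. Of all 35116 RefSeq promoters, 21.1%, 34.6% and 6.43% hold these letters in the 126 bases before the start. The COL4A4/COL4A3 stretch, 111 bases without an annotated exon of either gene, was 61.3% G or C and held 1 GC box, as do 32.9% of promoters over that length. The COL4A6/COL4A5 stretch of 250 bases was 51.2% G or C, with 2 CCAAT matches and 1 CCCTNCCCC match. At least 1 match to CCAAT is found in 32.0% of promoters at that length, and at least 1 to CCCTNCCCC in 10.6%. The RefSeq starts lie 419 bases apart for COL4A4/COL4A3 and 380 for COL4A6/COL4A5, and only part of each gap was shown and searched. The TATA box and the AP-1 motif were in none of the 3 stretches shown.

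Of the 44 genes, 27 passed the filter on low counts and were tested. By edgeR's quasi-likelihood test with Benjamini-Hochberg adjustment over all genes, 13 of the 27 changed, 8 upward and 5 downward in the knockout. Over all 16219 genes tested, 27.0% changed, 13.0% upward and 14.1% downward. The median log2 fold change was 0.29 over the tested collagen genes and 0.00 over all tested genes. For 12 of the 27 the groups did not overlap, as was the case for 29.3% of all tested genes. By class, 4 of 6 collagen IV genes changed, 2 of 8 tested fibrillar genes, and 7 of 13 tested genes of other types. Together the 44 genes took 0.0711% to 0.126% of gene counts in parental and 0.105% to 0.145% in knockout tumours.

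**Figure D1:**
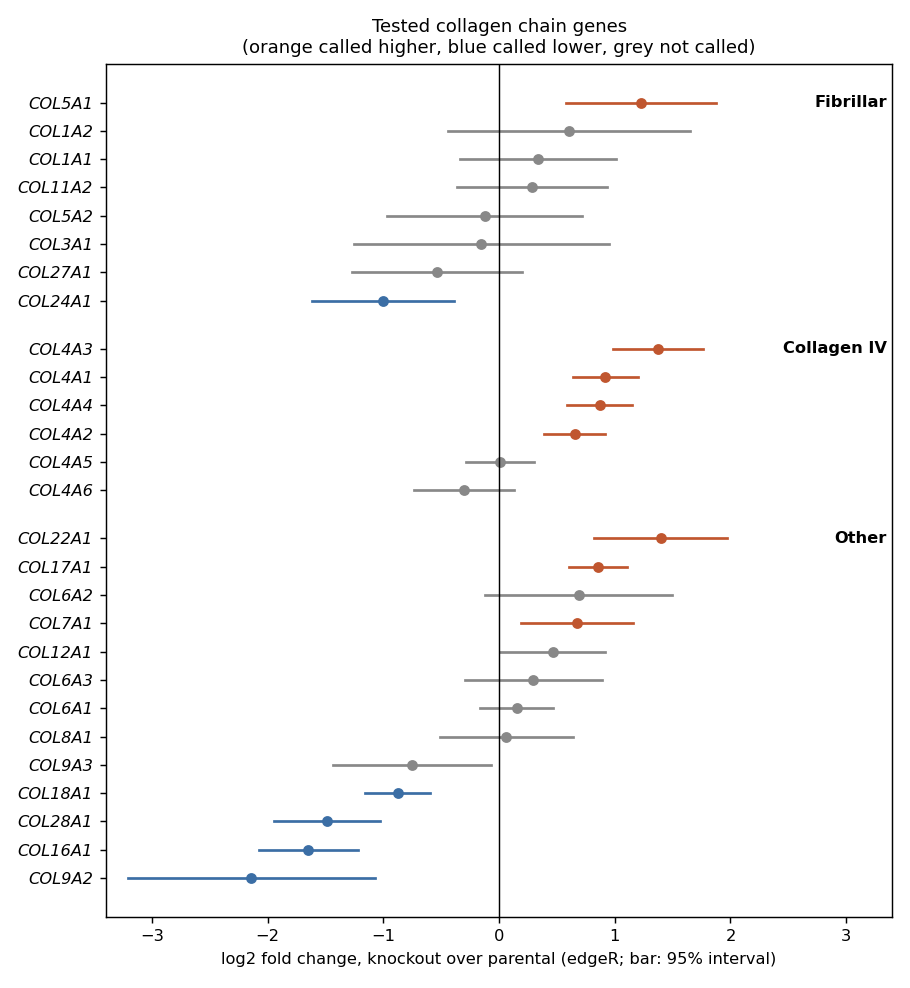
Log2 fold change of each tested collagen gene, knockout over parental, with its 95% interval from the edgeR fit (x axis), by class (y axis). The 4 called genes of collagen IV lie to the right of 0, from 0.65 for COL4A2 to 1.38 for COL4A3, while called genes of the other classes lie on both sides.

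Collagen IV was higher in the knockout for the chains of 2 of its 3 gene pairs. COL4A1, COL4A2, COL4A3 and COL4A4 rose 1.57-fold to 2.60-fold, and neither COL4A5 nor COL4A6 passed the test. The chains of COL4A1 and COL4A2 assemble together in nearly all basement membranes. Those of COL4A3, COL4A4 and COL4A5 form the trimer of the kidney filter and lung alveolus, and those of COL4A5 and COL4A6 pair in skin and smooth muscle.

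COL4A1 (chromosome 13, 110148963 to 110307233, minus strand, GENCODE 29 on GRCh38) was at 38.7, 42.4, 36.1 and 53.6 CPM in parental replicates 1 to 4. It was at 81.0, 69.2, 84.6 and 88.2 CPM in knockout replicates 1 to 4. All knockout values were above all parental values, with group means of 42.7 ± 7.69 and 80.8 ± 8.24 CPM (SD, n = 4 each). The log2 fold change was 0.92 (standard error 0.128, edgeR adjusted p = 0.000323). Its partner COL4A2 (chromosome 13, 110305812 to 110513209, plus strand) was at 70.9, 75.2, 62.3 and 87.6 CPM in parental and at 128, 96.8, 116 and 124 CPM in knockout tumours. The groups were again apart, and parental replicate 4 was the highest parental tumour for both genes. The log2 fold change of COL4A2 was 0.65 (standard error 0.120, edgeR adjusted p = 0.00207).

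COL4A3 (chromosome 2, 227164565 to 227314792, plus strand) was at 11.0, 15.4, 12.1 and 8.46 CPM in parental and at 31.3, 29.6, 24.3 and 36.4 CPM in knockout tumours. Its rise, a log2 fold change of 1.38 (standard error 0.178, edgeR adjusted p = 0.000188), was the largest of the collagen IV genes. COL4A4 (chromosome 2, 227002711 to 227164453, minus strand) was at 44.0, 47.8, 33.3 and 32.4 CPM in parental and at 76.5, 71.0, 69.7 and 70.3 CPM in knockout tumours. Neither gene had a knockout tumour within the parental range. The log2 fold change of COL4A4 was 0.87 (standard error 0.127, edgeR adjusted p = 0.000432).

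The third chain of that trimer did not pass the test. COL4A5 (X chromosome, 108439844 to 108697545, plus strand) was at 60.2, 65.1, 43.1 and 46.0 CPM in parental and at 59.4, 53.2, 49.5 and 53.6 CPM in knockout tumours. The knockout values lay inside the parental range, and the log2 fold change was 0.01 with a 95% interval from -0.28 to 0.30 (edgeR adjusted p = 0.965). COL4A6 (X chromosome, 108155607 to 108439497, minus strand) was at 11.4, 9.52, 5.67 and 7.57 CPM in parental and at 6.54, 6.78, 7.65 and 6.68 CPM in knockout tumours. Its interval ran from -0.74 to 0.13 around -0.30 (edgeR adjusted p = 0.288).

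The endothelial markers, of which 8 were listed, summed to 7.41 to 18.3 CPM in parental and 9.20 to 15.5 CPM in knockout tumours. PECAM1 made up most of that sum and was not called (7.94 ± 3.59 and 9.77 ± 3.21 CPM). VWF, the other endothelial marker tested, fell from 1.97 ± 0.806 to 0.378 ± 0.0709 CPM (edgeR adjusted p = 0.000410). The untested CDH5 was at 0 in all 4 knockout tumours and at 0.0488 to 1.16 CPM in parental tumours. The other untested endothelial markers went both ways in total counts. KDR had 38 counts in parental and 9 in knockout tumours, TEK 28 and 24, and EMCN 1 and 1. TIE1 had 15 and 30, and CLDN5 had 2 and 4. The fibroblast marker sum, given above, was higher in every knockout tumour, with only LUM, MFAP5 and FBN1 called. The part of either cell type in the collagen IV values was not tested.

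**Figure D2:**
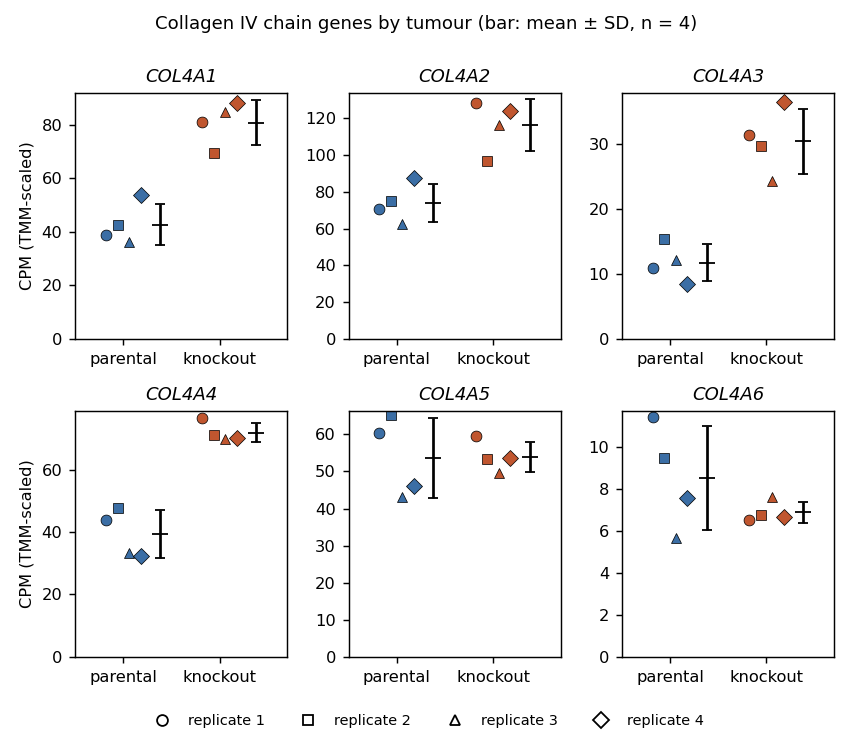
CPM (y axis) of the 6 collagen IV genes in the 4 parental and 4 knockout tumours, with symbols for the replicate number and a bar for the mean ± SD. COL4A1 to COL4A4 separate the groups, and COL4A5 and COL4A6 do not.

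Of the tested fibrillar genes, 1 rose, 1 fell and the other 6 did not pass the test. COL1A1 and COL1A2, the chains of collagen I, COL3A1, the chain of collagen III, and COL5A2, a chain of collagen V, were among those 6 and varied widely within each group. COL5A1, whose product starts and limits collagen I fibrils, rose 2.34-fold. COL24A1, a minor fibrillar collagen described in bone, fell to 0.499 of its parental level.

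COL1A1 (chromosome 17, 50183289 to 50201632, minus strand) was the most abundant collagen transcript in every tumour, with 24.7% to 45.6% of all collagen counts. It was at 332, 572, 334 and 174 CPM in parental and at 555, 317, 565 and 349.9 CPM in knockout tumours. The groups overlapped widely, and the log2 fold change of 0.34 had an interval from -0.34 to 1.01 (edgeR adjusted p = 0.456). COL1A2 (chromosome 7, 94394561 to 94431232, plus strand) was at 4.66, 10.4, 3.22 and 1.83 CPM in parental and at 8.83, 4.97, 12.3 and 4.39 CPM in knockout tumours. Its log2 fold change was 0.60, with an interval from -0.44 to 1.65 (edgeR adjusted p = 0.385). Without parental replicate 2 it was 1.25 and passed the test (edgeR adjusted p = 0.0366).

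COL3A1 (chromosome 2, 188974320 to 189012746, plus strand) was at 11.96, 23.1, 8.31 and 2.55 CPM in parental and at 13.0, 7.26, 14.4 and 6.35 CPM in knockout tumours. COL5A2, its neighbour on the opposite strand (189031896 to 189225312), was at 9.89, 20.4, 8.84 and 4.25 CPM in parental and at 11.4, 7.07, 13.4 and 7.70 CPM in knockout tumours. Their log2 fold changes were -0.16 and -0.12 (edgeR adjusted p = 0.853 and 0.847), with intervals from -1.26 to 0.95 and from -0.97 to 0.72. COL1A1, COL1A2, COL3A1 and COL5A2 had the same highest and lowest parental tumour, replicates 2 and 4, which differed 3.30-fold to 9.07-fold. In the knockout group all 4 genes were highest in replicate 3, with replicate 1 next, and lowest in replicate 2 or 4. Parental replicate 2 also had the highest leukocyte and skeletal muscle sums given above. Parental replicate 3, with the next highest leukocyte sum, was below replicate 1 for COL1A2, COL3A1 and COL5A2. For COL1A1 it was at 334 CPM, against 332 CPM in replicate 1. Parental replicate 4, the lowest parental tumour for all 4 genes, had the next highest parental skeletal muscle sum, 11.6 CPM. The part of host cells in these values was not tested.

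COL5A1 (chromosome 9, 134641774 to 134844843, plus strand) was at 4.19, 8.54, 4.20 and 2.85 CPM in parental and at 15.3, 9.12, 10.9 and 10.8 CPM in knockout tumours. Parental replicate 2 came closest to the knockout range but stayed below it. The log2 fold change was 1.23 (standard error 0.294, edgeR adjusted p = 0.00971), and it was 1.62 without parental replicate 2. The fibroblast marker sum, in which only LUM, MFAP5 and FBN1 were called, rose with it between the groups. The part of fibroblasts in this result was not tested. COL24A1 (chromosome 1, 85729233 to 86156943, minus strand) was at 1.09, 1.22, 1.25 and 1.11 CPM in parental and at 0.327, 0.780, 0.607 and 0.607 CPM in knockout tumours. Its log2 fold change was -1.003 (standard error 0.280, edgeR adjusted p = 0.0208). These are 7 to 28 reads per library, and the call was lost without knockout replicate 1 (edgeR adjusted p = 0.0631) or 3 (0.0522), and without parental replicates 2 and 3 together (0.0793).

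The other tested fibrillar genes were COL27A1 and COL11A2, both known from cartilage. COL27A1 was at 2.23, 3.52, 7.01 and 2.51 CPM in parental and at 2.52, 3.22, 2.19 and 2.61 CPM in knockout tumours. Parental replicate 3 set most of its spread, and the log2 fold change of -0.54 did not pass the test (edgeR adjusted p = 0.272). COL11A2 was at 0.518, 0.342, 0.670 and 0.510 CPM in parental and at 0.748, 0.683, 0.513 and 0.560 CPM in knockout tumours, a log2 fold change of 0.29 (edgeR adjusted p = 0.515).

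**Figure D3:**
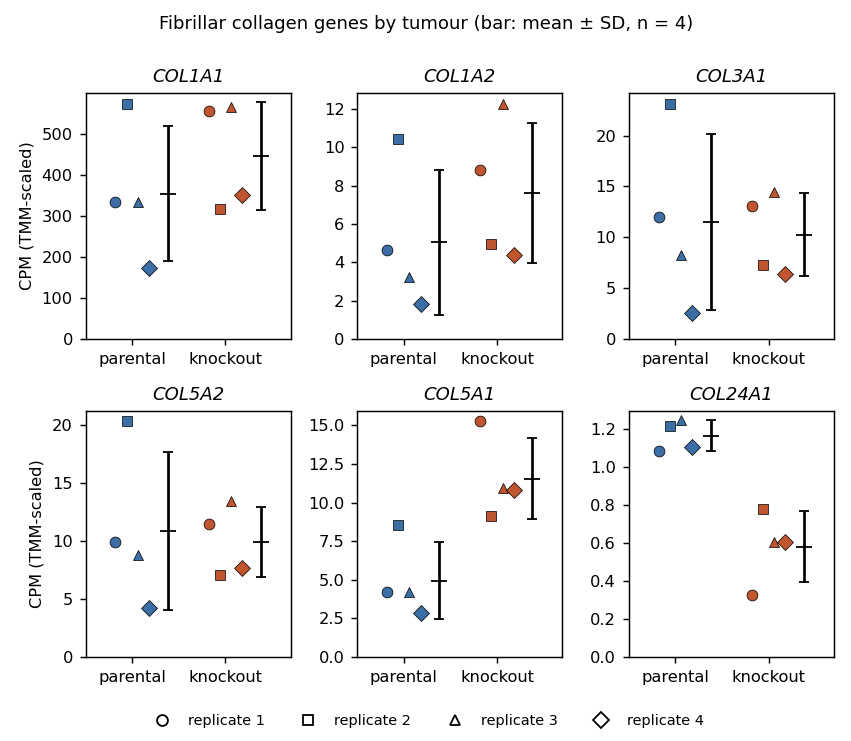
CPM (y axis) of 6 fibrillar collagen genes by tumour, with symbols for the replicate number and a bar for the mean ± SD of 4 tumours. COL1A1, COL1A2, COL3A1 and COL5A2 put parental replicate 2 highest and parental replicate 4 lowest, while COL5A1 and COL24A1 keep the groups apart.

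Of the 13 tested genes of other types, 3 rose and 4 fell. COL17A1 and COL7A1, which link epithelial cells to the matrix beneath, rose. COL16A1, COL18A1, COL28A1 and COL9A2 fell, and COL22A1 rose.

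COL17A1 encodes a transmembrane collagen of hemidesmosomes, the junctions that fix epithelial cells to the basement membrane (chromosome 10, 104031286 to 104085957, minus strand). It was at 32.4, 45.0, 37.0 and 34.1 CPM in parental and at 64.9, 72.5, 71.6 and 60.2 CPM in knockout tumours. The groups did not overlap, and the log2 fold change was 0.86 (standard error 0.114, edgeR adjusted p = 0.000231). COL7A1 encodes the anchoring fibrils below the basement membrane (chromosome 3, 48564073 to 48595267, minus strand). It was at 107, 112, 171 and 73.1 CPM in parental and at 234, 165, 152 and 187 CPM in knockout tumours. Here parental replicate 3 lay above knockout replicates 2 and 3. The log2 fold change was 0.67 (standard error 0.221, edgeR adjusted p = 0.0425), a call that was lost in 6 of the 8 fits that left out 1 tumour, with adjusted p up to 0.124, and with the replicate number as a block (0.0528).

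COL18A1 encodes a basement membrane collagen that carries heparan sulfate and yields endostatin (chromosome 21, 45405137 to 45513720, plus strand). It was at 47.1, 53.3, 62.1 and 43.1 CPM in parental and at 31.3, 24.0, 27.7 and 28.8 CPM in knockout tumours. Every knockout tumour was below every parental one, a log2 fold change of -0.88 (standard error 0.126, edgeR adjusted p = 0.000395). Exons of SLC19A1 on the other strand overlap 16.4% of its exon length, and without a stated strand setting reads of the 2 genes cannot be told apart there. COL16A1, a fibril-associated collagen (chromosome 1, 31652247 to 31704319, minus strand), was at 16.0, 17.8, 15.8 and 9.57 CPM in parental and at 4.81, 5.56, 4.34 and 4.11 CPM in knockout tumours. The ranges were apart, and its log2 fold change was -1.65 (standard error 0.195, edgeR adjusted p = 0.000104).

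COL9A2 encodes a chain of collagen IX, a fibril-associated collagen of cartilage (chromosome 1, 40300487 to 40317813, minus strand). It was at 11.0, 8.74, 29.7 and 6.59 CPM in parental and at 2.99, 5.61, 2.29 and 1.82 CPM in knockout tumours. Parental replicate 3 stood far above the others, and the log2 fold change of -2.14 (standard error 0.486, edgeR adjusted p = 0.00710) was -1.47 without it (edgeR adjusted p = 0.0104). Of its partner chains, COL9A3 had a log2 fold change of -0.75 that did not pass the test (edgeR adjusted p = 0.0988), and COL9A1 had 2 counts in all. The chondrocyte markers (4 genes) summed to 21.6 to 27.3 CPM in parental and 22.0 to 28.6 CPM in knockout tumours. SOX9, which many epithelial tumours also express, made up nearly all of it and was not called, while ACAN and MATN1 did not exceed 0.0467 and 0.187 CPM and CNMD was at 0.

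COL28A1, a collagen known from peripheral nerve (chromosome 7, 7356203 to 7535853, minus strand), was at 4.71, 4.20, 5.00 and 3.06 CPM in parental and at 1.68, 1.32, 1.49 and 1.54 CPM in knockout tumours. The values of the groups did not meet, and the log2 fold change was -1.49 (standard error 0.208, edgeR adjusted p = 0.000324). COL22A1, found at tissue junctions such as that of muscle and tendon (chromosome 8, 138588235 to 138914006, minus strand), was at 1.40, 1.51, 1.34 and 1.32 CPM in parental and at 5.00, 4.39, 3.08 and 2.24 CPM in knockout tumours. The parental values were tight and all below the knockout values, a log2 fold change of 1.40 (standard error 0.261, edgeR adjusted p = 0.00223).

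The 6 tested genes of these types that did not pass were COL6A1, COL6A2, COL6A3, COL8A1, COL9A3 and COL12A1. COL6A1, COL6A2 and COL6A3 encode the beaded filaments of collagen VI and had log2 fold changes of 0.15, 0.69 and 0.30 (edgeR adjusted p = 0.480, 0.199 and 0.456). COL8A1, of the short-chain collagen that surrounds vessels and lines the cornea, had a difference of 0.06 on the log2 scale, with an interval from -0.51 to 0.64 (edgeR adjusted p = 0.887). Its values ran from 30.3 to 52.3 CPM in parental and from 24.0 to 66.8 CPM in knockout tumours. COL12A1, which binds the surface of collagen I fibrils, was at 20.5, 39.4, 21.3 and 23.1 CPM in parental and at 37.3, 34.7, 43.4 and 28.3 CPM in knockout tumours. Parental replicate 2 alone reached the knockout range. The log2 fold change of COL12A1 was 0.46 (edgeR adjusted p = 0.124), and without parental replicate 2 it was 0.73 and passed the test (edgeR adjusted p = 0.00275). Of all alternatives, COL6A2 likewise passed only when that tumour was left out, alone (1.11, edgeR adjusted p = 0.0296) or with parental replicate 3 (1.17, 0.0459).

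**Figure D4:**
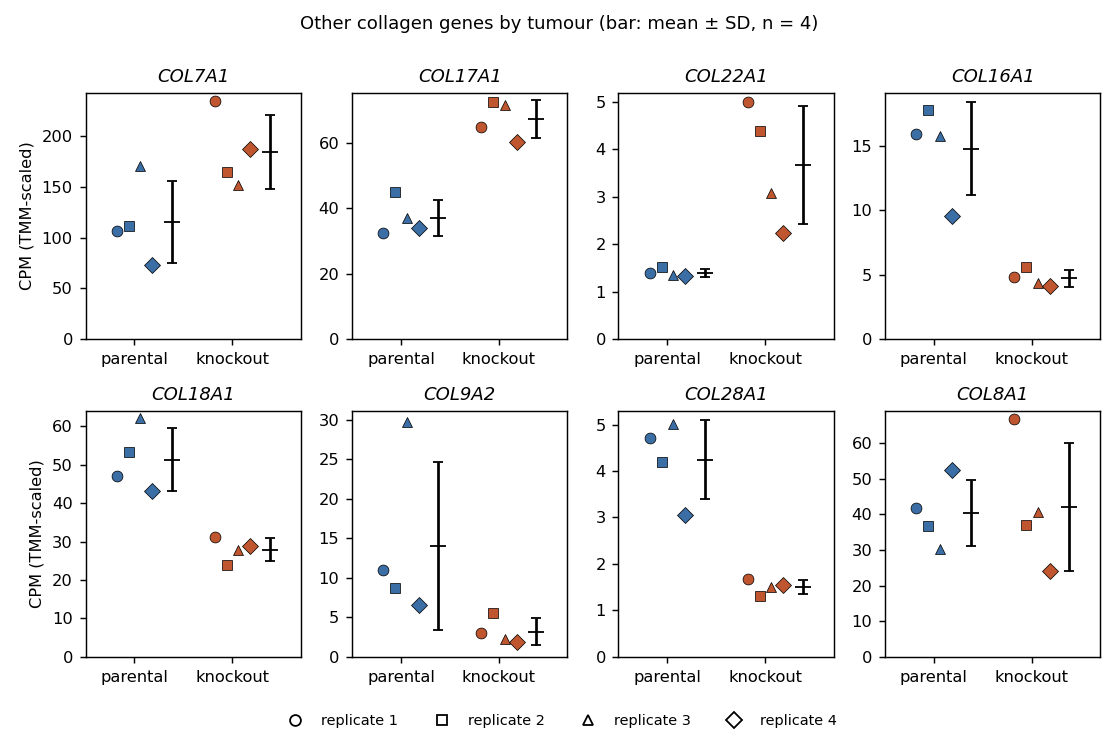
CPM (y axis) of 8 collagen genes outside the fibrillar and collagen IV classes by tumour, with symbols for the replicate number and a bar for the mean ± SD of 4 tumours. COL17A1 and COL22A1 lie higher and COL16A1, COL18A1, COL9A2 and COL28A1 lower in every knockout tumour, while COL7A1 and COL8A1 overlap.

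The remaining 17 genes fell under the filter, with 2 to 97 counts over all 8 tumours. None was at 0 in every tumour. In a fit without the filter, 6 of them passed edgeR's adjusted threshold, 3 upward and 3 downward, against 14.6% of the 33657 genes in that fit. That share is not a like one, since it also covers the 16219 genes that passed the filter. The share among genes under the filter alone was not computed. For 15 of the 17, those with more than 3 counts in a group, the CPM of the groups was also set against all exact permutations of the labels (two-sided), where the smallest possible p is 0.0286. The 95% intervals that follow are exact, for pooled counts, and cover counting error only.

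COL5A3, another collagen V chain, had 5, 4, 4 and 1 counts in parental and 18, 28, 10 and 25 in knockout tumours. The knockout-to-parental ratio was 5.85 (95% interval 3.29 to 11.2; exact permutation p = 0.0286), and edgeR without a filter gave an adjusted p of 0.000332. COL11A1, a cartilage collagen also known from tumour stroma, had 6, 9, 2 and 1 counts in parental and 19, 17, 34 and 9 in knockout tumours. The lowest knockout tumour met the highest parental one in counts, with a ratio of 4.44 (2.63 to 7.87; exact permutation p = 0.0571, edgeR adjusted p without a filter 0.00448). COL10A1, of hypertrophic cartilage, had 3 counts over the parental and 23 over the knockout tumours, of which 11 were in replicate 4 and 0 in replicate 1. Its ratio was 7.75 (2.34 to 40.3; exact permutation p = 0.143, edgeR adjusted p without a filter 0.0432).

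In the other direction, COL6A6, an alternative collagen VI chain, had 2, 6, 13 and 15 counts in parental tumours and 1 count in all knockout tumours. The parental-to-knockout ratio was 35.6 (95% interval 5.995 to 1445; edgeR adjusted p without a filter 0.000315). COL25A1, a transmembrane collagen found in amyloid plaques, had 7, 3, 4 and 10 counts in parental tumours and 2 in the knockout, both in replicate 1, a ratio of 11.9 (2.95 to 104; edgeR adjusted p without a filter 0.00715). COL21A1, a fibril-associated collagen, had 9, 3, 5 and 6 counts against 2, 0, 0 and 1, a ratio of 7.58 (2.29 to 39.4; edgeR adjusted p without a filter 0.0148). For all 3 genes every parental tumour lay above every knockout tumour (exact permutation p = 0.0286 each). COL6A5 (15 against 4 counts) and COL8A2 (17 against 6) had groups that did not overlap but did not pass without a filter (edgeR adjusted p = 0.142 and 0.199). Of the other 9, COL13A1, COL14A1, COL15A1, COL19A1, COL20A1, COL23A1 and COL26A1 held 7 to 20 counts in all with overlapping groups, and COL2A1 and COL9A1 held 4 and 2. For none of the first 7 did edgeR without a filter pass (adjusted p 0.269 to 1.00).

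Levels of different genes were set side by side as CPM per kilobase of exon in GENCODE 29. In parental tumours COL1A1 led at 35.97 ± 16.7, followed by COL7A1 at 10.4 ± 3.67, COL18A1 at 6.03 ± 0.970, COL6A1 at 5.70 ± 0.806 and COL17A1 at 5.25 ± 0.787 CPM per kilobase (SD, n = 4 each). In knockout tumours COL1A1 and COL7A1 kept the first ranks at 45.5 ± 13.4 and 16.7 ± 3.27, COL17A1 was next at 9.53 ± 0.827 and COL4A4 at 7.13 ± 0.312, and COL18A1 ranked 11. COL18A1, COL6A1 and COL17A1 in parental tumours differed by less than their spread.

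Ratios between chains of a trimer or a fibril were then taken within each tumour on the same per-kilobase scale. They were chosen after the values were seen, 9 in number, and compared by exact two-sided permutation of the log2 ratio with adjustment over the 9. Since 0.0286 is the smallest p, the 3 ratios that reached it had an adjusted p of 0.0857. Those 3 were COL4A5 to COL4A3, COL5A1 to COL5A2, and COL4A1 to COL4A2. COL4A5 to COL4A3 fell from 4.22, 3.26, 2.75 and 4.18 in parental to 1.46, 1.38, 1.57 and 1.13 in knockout tumours without overlap, though short of the adjusted threshold. COL5A1 to COL5A2 was 0.279 to 0.446 in parental and 0.541 to 0.937 in knockout tumours. COL4A1 to COL4A2 was 0.714 to 0.800 and 0.828 to 0.954.

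Collagen I is built from more COL1A1 than COL1A2 chains, and the transcript ratio was far from balance in every tumour. COL1A1 exceeded COL1A2 62.2-fold to 118-fold per kilobase in parental and 52.3-fold to 90.6-fold in knockout tumours, and the groups overlapped (exact permutation p = 0.229, adjusted 0.257). COL6A1 exceeded COL6A2 by 19.2-fold to 53.7-fold and COL6A3 by 91.3-fold to 212-fold over all 8 tumours, although all 3 chains enter 1 filament. How the mapping of host reads bears on these ratios was not tested.

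**Figure D5:**
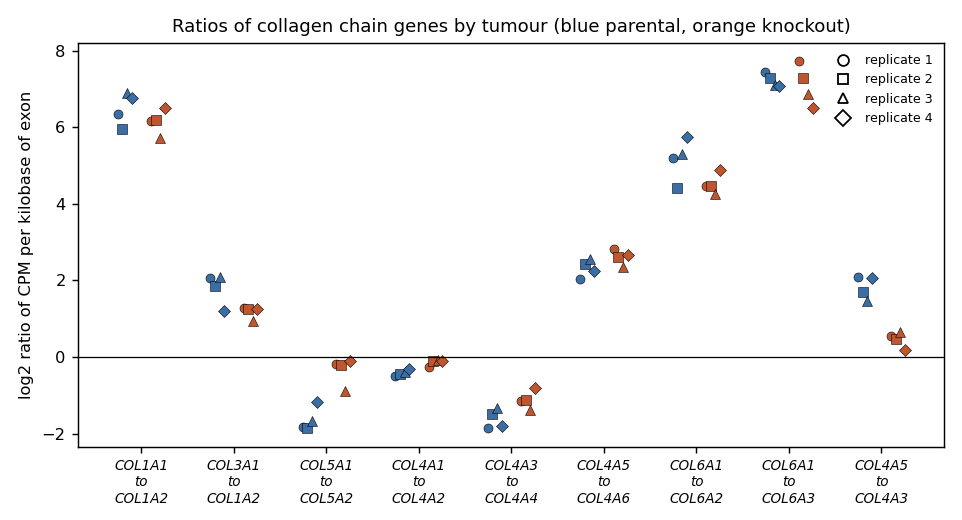
Log2 ratio of CPM per kilobase of exon (y axis) for 9 pairs of collagen genes (x axis), 1 symbol per tumour. COL1A1 to COL1A2 and both COL6A1 ratios lie above 4 on the log2 scale in all tumours, and COL4A5 to COL4A3, COL5A1 to COL5A2 and COL4A1 to COL4A2 keep the groups apart.

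Genes that modify, fold, export, process and cross-link collagen were examined as a list of 40, of which 36 were tested. Of these, 16 changed, 9 upward and 7 downward, with a median log2 fold change of -0.04. That share of 44.4% stands beside the 27.0% of all tested genes. CREB3L1, a transcription factor that drives collagen genes in bone, went from 104 ± 22.6 down to 9.89 ± 3.60 CPM (SD, n = 4 each), with a log2 fold change of -3.402 (edgeR adjusted p = 3.32e-06). PXDN, the peroxidase that cross-links collagen IV, went from 146 ± 33.7 down to 34.1 ± 11.6 CPM (log2 fold change -2.10, edgeR adjusted p = 5.29e-05). Its direction was opposite to that of COL4A1 to COL4A4, and in each of the 4 knockout tumours it was below every parental value.

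Prolyl hydroxylation stabilises the collagen helix, and 3 of 13 genes of collagen hydroxylation and its cofactors rose and 2 fell, beside 13.0% and 14.1% of all tested genes. P4HA3, a catalytic subunit of prolyl 4-hydroxylase, rose from 2.48 ± 0.458 to 10.2 ± 1.28 CPM (log2 fold change 2.04, edgeR adjusted p = 1.04e-05), while the subunit gene P4HA1, named after its values were seen, had a log2 fold change of -0.03 (edgeR adjusted p = 0.914). P3H3, a prolyl 3-hydroxylase family gene, had a log2 fold change of -1.96 (edgeR adjusted p = 0.00187). LOX, which cross-links fibrils, rose from 28.2 ± 8.29 to 57.6 ± 19.6 CPM with overlapping groups (log2 fold change 1.03, edgeR adjusted p = 0.0148). ADAMTS14, which removes the amino-terminal propeptide, fell by 1.23 on the log2 scale with overlapping groups (edgeR adjusted p = 0.0131). SERPINH1, the collagen chaperone HSP47, named after its values were seen, rose from 17.6 ± 0.634 to 35.1 ± 6.37 CPM (log2 fold change 0.99, edgeR adjusted p = 0.000158).

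Collagen receptors were a list of 10, of which 8 were tested and 3 rose, beside 13.0% of all tested genes. The number called in either direction was 2 in 8 of the 17 alternatives, among them total-count scaling and 5 fits that left out 1 tumour, and 4 by DESeq2. ITGB1, the shared beta subunit of the collagen-binding integrins, rose from 907 ± 109.7 to 1605 ± 227 CPM (log2 fold change 0.82, edgeR adjusted p = 0.000556). ITGA10, an alpha subunit that pairs with it, rose from 1.28 ± 0.202 to 2.94 ± 0.569 CPM (1.20, edgeR adjusted p = 0.00207). DDR2, a receptor kinase for fibrillar collagen, rose from 3.01 ± 0.777 to 4.49 ± 0.331 CPM (0.58, edgeR adjusted p = 0.0475). None of the 8 fell past the threshold. DDR1, the other collagen receptor kinase, had a log2 fold change of -0.34 (edgeR adjusted p = 0.0698).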

How the data were processed

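Each tumour has 1 deposited file of raw counts by gene symbol. TopHat2 2.1.1, HTSeq 0.11.0 and hg38 are named in the submitters' processing notes; the annotation, strand setting and counting mode are not given in the sources used here. The 5 summary lines of each file name no gene and were dropped, which left 79.1% to 85.2% of a library's entries. Counts were filtered with filterByExpr (minimum count 10, minimum total 15), TMM-scaled and fitted with edgeR 4.0.16 in R 4.3.3 (quasi-likelihood F-test, 4 against 4, no covariate). Calls have an adjusted p under 0.05. A standard error is the log2 fold change over the root of F. The fits were tested on simulated data, where DESeq2 called more false genes than edgeR or limma-voom. Alternatives were DESeq2 1.42.0, limma-voom (limma 3.58.1), 3 scalings, 2 filters, a replicate block and leaving out each tumour. Leaving out parental replicates 2 and 3 was added after the data were seen. Libraries all differed beyond sampling noise. Positions and exon lengths are from GENCODE 29, matched by symbol for all 44 genes. Named are called collagens, tested fibrillar and collagen IV genes, other members by summary, and the 6 called genes of largest change in each accessory list. Members and lists were chosen with earlier results of these data known. The sum of 1 marker list is not reported here.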

Additional observations from a re-analysis of the deposited data

Results flagged for a closer look

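Over 54 sets of 4 values (27 tested collagen genes in each group), 1 tumour stood apart from the other 3 of its group by Dixon's criterion, where chance alone gives about 5% of sets. COL12A1 was at 39.4 CPM in parental replicate 2, while the other parental tumours lay at 20.5 to 23.1 CPM. That tumour was the highest parental one for 5 of the 8 tested fibrillar genes, 3 of the 6 collagen IV genes and 7 of the 13 others, COL12A1 among them.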

How the results depend on the processing

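Of the 13 called collagen genes, 11 were called in every one of the 17 alternatives that tested them, and COL7A1 and COL24A1 were not; no called gene changed direction. COL1A2, COL6A2 and COL12A1 passed without parental replicate 2, and COL9A3 without parental replicates 2 and 3 (-1.09, edgeR adjusted p = 0.0260). The number of called collagen genes was 11 to 17 when 1 tumour was left out, and 17 without parental replicates 2 and 3. The 4 collagen IV calls held in all 17. Without the low-count filter 8 collagen genes were lower (against 5), 4 fibrillar genes were called (against 2) and 11 of the other types (against 7), because more genes were tested. With a minimum count of 50, 1 fibrillar gene was called, because COL24A1, at 7 to 28 counts per library, was no longer tested. Leaving out 1 tumour gave 1 (without knockout replicate 1) to 5 (without parental replicate 2). It gave 4 without parental replicate 1, parental replicate 4 or knockout replicate 4. Each fit without a tumour applied the low-count filter anew, and the cause of these last changes was not tested. Genes without a call changed sign: COL3A1 by limma-voom (0.19), with the replicate block (0.11) and without parental replicates 2 and 3 (0.52), and COL5A2 in the same fits (0.0647, 0.0374 and 0.50). COL4A5 was -0.0067 by total-count scaling and -0.0095 without a filter, COL8A1 -0.0041 by limma-voom and -0.17 without parental replicates 2 and 3, and COL27A1 0.14 in the latter. Leaving out 1 tumour gave -0.49 to 0.44 for COL3A1, -0.40 to 0.38 for COL5A2, -0.0837 to 0.12 for COL4A5 and -0.25 to 0.26 for COL8A1. Whether the replicate numbers pair the tumours is not stated in the labels. Same-numbered tumours had correlations of deviations from -0.223 to 0.092, and 0 of 8 correlated best with their own number. So few tumours cannot show whether an animal or batch was shared. With the replicate block 12 collagen genes were called. Depth limits the 17 genes under the filter.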
